A study of Mus musculus with 4 samples.

Results

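The cells described here are smooth muscle cells of the mouse popliteal vessels that express Pln and Sorbs2. They were taken from 3 single-cell RNA libraries by a gate on single genes: a cell needed a transcript of at least 2 of the smooth muscle genes Myh11, Cnn1, Lmod1 and Synpo2, a transcript of Pln, and a transcript of at least 1 of Sorbs2, Susd5, Timp4 and S1pr3. It could have at most 1 of 6 genes of another kind of vessel muscle (Hmcn2, Enpp2, Kcng1, H2-M9, Ano1, Sytl2) and at most 1 of 4 pericyte genes (Kcnj8, Abcc9, Higd1b, Vtn). The gate took 351 of 3435 kept cells: 264 of 1919 in the first library of popliteal lymphatic vessels (PLV replicate 1), 43 of 519 in the second (PLV replicate 2) and 44 of 997 in a library that mixed PLV with popliteal blood vessels (BV). All mice were adult and of the cross WT1GFPCre with Ai9-tdT, in which Cre under control of the Wt1 locus switches on the tdTomato reporter, and there was no other genotype. Evans blue dye was injected into the footpad, and each library came from 1 pool of 2 mice. RNA was read by droplet-based 10x sequencing of 3′ ends. The PLV pools were digested for 30 min with collagenase I, Dispase II, DNAse and Liberase, and the mixed pool for 60 min with collagenase I and Dispase II only. Vessels, digestion, mice and the version of the counting software (Cell Ranger) change at once from one kind of library to the other. The libraries are the replicates, and cells of 1 library are not.

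Smooth muscle of the vessel wall contracts when calcium enters through membrane channels or leaves the sarcoplasmic reticulum, the calcium store of the cell, and relaxes as the pump of the store takes it back. Phospholamban, the product of Pln, holds that pump in check. Sorbs2 encodes an adaptor of the actin cytoskeleton, Timp4 an inhibitor of matrix metalloproteinases, S1pr3 a receptor for sphingosine 1-phosphate and Tesc a calcium-binding protein. Muscle of collecting lymphatic vessels paces itself, and Ano1, a calcium-activated chloride channel, is known for its part in that pacemaking.

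The summed counts of the cells were 1364956 UMIs (unique molecular identifiers, 1 per captured RNA molecule) in PLV replicate 1, 368897 in PLV replicate 2 and 290145 in the mixed library, with medians per cell of 4871, 8560 and 5733. No barcode was shared between any pair of libraries. Of the 351 cells, 3 in PLV replicate 1 and 0 in the other libraries were predicted doublets, of 13, 3 and 3 in all kept cells. Gm42418, a locus known to collect ribosomal RNA reads, made up 3387 CPM (the UMIs of a gene scaled by the summed UMIs of the gate) of the cells in PLV replicate 1, 63700 in PLV replicate 2 and 69920 in the mixed library, so that PLV replicate 1 stood apart.

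Smooth muscle genes outside the gate were high in these cells. Acta2, smooth muscle actin, was not used by the gate and stood at 14160, 14660 and 13510 CPM in PLV replicates 1 and 2 and the mixed library. The 30 contractile genes listed outside the gate, Acta2 included, made up a median of 6.99%, 6.75% and 7.12% of the UMIs of a cell. Tesc, named as a marker of these cells but left out of the gate, was at 265, 282 and 438 CPM. The defining markers of lymphatic endothelium summed to 5.86, 0 and 6.89 CPM over 6 genes and Prox1 was at 0 in all 3 libraries. Macrophage markers summed to 23.4, 19.0 and 10.3 CPM over 7 genes, Schwann markers to 19.8, 8.13 and 10.3 CPM over 6 genes with Sox10 at 0 throughout, and blood endothelial markers to 173, 13.6 and 13.8 CPM over 8 genes with Kdr at 0 throughout. Fibroblast markers were higher, at 932, 626 and 1709 CPM over 8 genes, with Pdgfra, Lum, Pi16 and Scara5 at 0 in PLV replicate 2 alone. The pericyte list, which holds the 4 gate genes and Rgs5, Cspg4, Pdgfrb and Ndufa4l2, summed to 1300.4, 1044 and 751 CPM over 8 genes, and 73.9%, 93.0% and 68.2% of the cells had 2 or more of them. Vtn was at 0 in PLV replicate 2 and the mixed library, and Kcnj8 in PLV replicate 2. The label calls the cells vascular. The files do not tie them to a vessel: they were found in the PLV libraries as in the mixed one. The mixed library has the hashtags CMO1 and CMO2, and neither is paired with a vessel. CMO1 made up a median of 80.1% of tag UMIs in these 44 cells, 80.0% in Ano1 and Hmcn2 type muscle and 79.8% in 67831 near-empty droplets. The cells of the gate are therefore called Pln and Sorbs2 type muscle.

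The 5 genes that chose the cells are given as a description, with no test. Pln reached 919, 867 and 869 CPM in PLV replicates 1 and 2 and the mixed library, and Sorbs2 1911, 2543 and 2109 CPM. Timp4 stood at 743, 553 and 769 CPM, S1pr3 at 448, 439 and 317 CPM and Susd5 at 198, 233 and 234 CPM. As a background for free RNA, fibroblast-marked cells (3 or more of 6 fibroblast genes and none of the 4 muscle genes) had 1, 0 and 0 Pln UMIs in 358, 80 and 259 cells, at median depths of 3888, 4310 and 6677 UMIs, and 0 UMIs of Timp4 and of Susd5. These cells were required to lack the 4 muscle genes, so this background is low in part by their choice. S1pr3 stood at 20.9, 14.1 and 16.7 CPM in those cells, so its share of cells with a UMI, 79.9%, 93.0% and 72.7% in Pln and Sorbs2 type muscle, is read against 6.70%, 3.75% and 6.95% there. Hmcn2 and H2-M9 had no UMI in any of the 351 cells.

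Cells lay near the edge of the gate by each of its terms. Exactly 1 Pln UMI was found in 54, 2 and 7 of the cells, and 41, 4 and 9 muscle cells met the whole rule except for Pln, with 0 UMIs of it at median depths of 2539, 3603 and 7588 UMIs. Exactly 1 pericyte gene was detected in 76, 15 and 13 of the cells, while 15, 3 and 4 cells were left outside by 2 pericyte genes alone. Exactly 1 gene of the Ano1 and Hmcn2 set was detected in 45, 8 and 10 of the cells, and 3, 1 and 0 cells were left outside by 2 genes of the Ano1 and Hmcn2 set alone. All 4 of the second genes were detected in 97, 28 and 22 cells.

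The Pln and Ano1 sets of genes were rarely found in the same cell. Of 566, 133 and 412 muscle-gated cells in PLV replicates 1 and 2 and the mixed library, 333, 56 and 75 had at least 2 of Pln, Sorbs2, Susd5, Timp4 and S1pr3, and 207, 76 and 321 had at least 2 of the 6 genes of the other set. Both were true of 15, 5 and 16 cells (2.65%, 3.76% and 3.88%), and neither of 41, 6 and 32. These counts carry no test, because the gate is built from the same genes. Of the cells with at least 2 genes of the Ano1 and Hmcn2 set, 56.0%, 64.5% and 54.5% also had at least 2 of the pericyte genes, and such cells are in neither muscle gate.

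**Figure D1:**
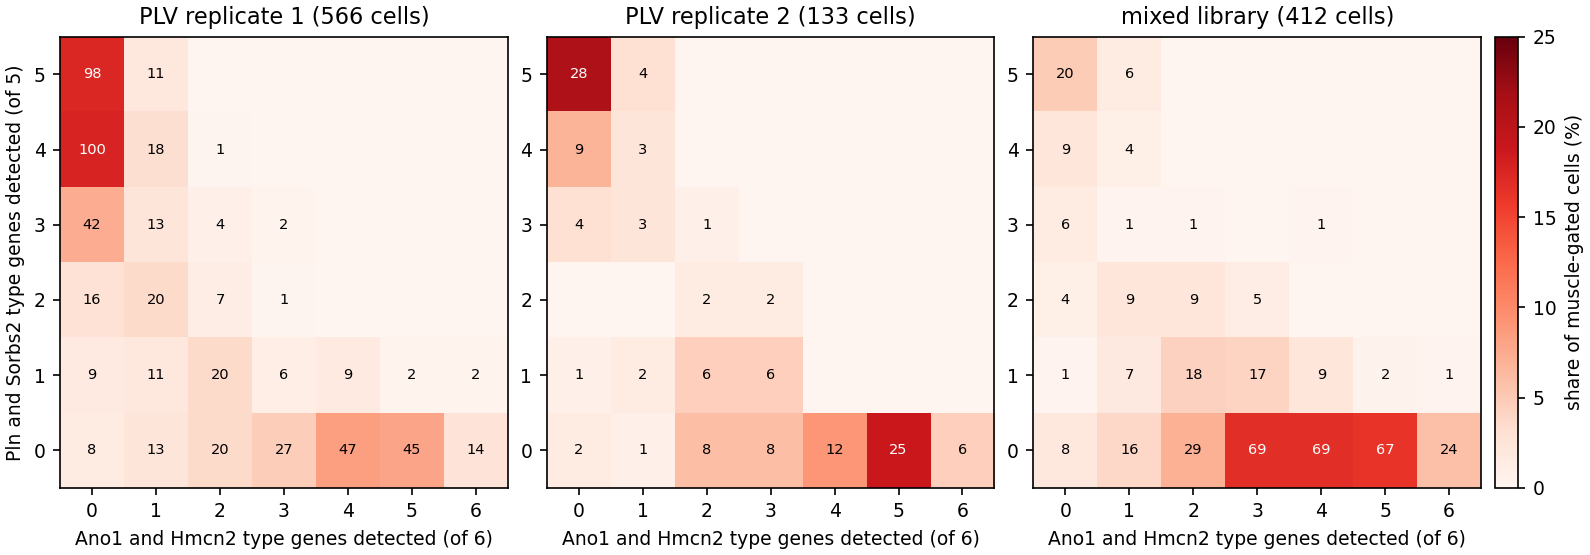
Muscle-gated cells of each library by the number of Pln and Sorbs2 type genes (vertical axis, Pln, Sorbs2, Susd5, Timp4, S1pr3) and of Ano1 and Hmcn2 type genes (horizontal axis, 6 genes) with at least 1 UMI; numbers are cells and colour is their share of the muscle-gated cells in percent. Cells gather in the upper left and the lower right, with 15, 5 and 16 cells having at least 2 genes of both sets.

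Pln and Sorbs2 type muscle was most common in the PLV libraries and least common in the mixed library. It made up 13.8% of kept cells in PLV replicate 1 (95% Clopper-Pearson interval 12.2 to 15.4), 8.29% in PLV replicate 2 (6.06 to 11.0) and 4.41% in the mixed library (3.22 to 5.88). Among cells left after marker-positive ones (2 or more endothelial, lymphatic endothelial or fibroblast genes) were removed, it was 25.1%, 17.0% and 11.2%, in the same order. Of the muscle-gated cells it was 46.6% (42.5 to 50.8), 32.3% (24.5 to 41.0) and 10.7% (7.87 to 14.1). The mean of the PLV libraries was 39.5% ± 10.1 (SD, n = 2), and the mixed library lay below both. Ano1 and Hmcn2 type muscle took the opposite order, at 16.1%, 20.3% and 35.4% of muscle-gated cells. The intervals cover counting error only, no test between 2 libraries and 1 was made, and the effects of vessel, digestion and pool cannot be told apart.

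**Figure D2:**
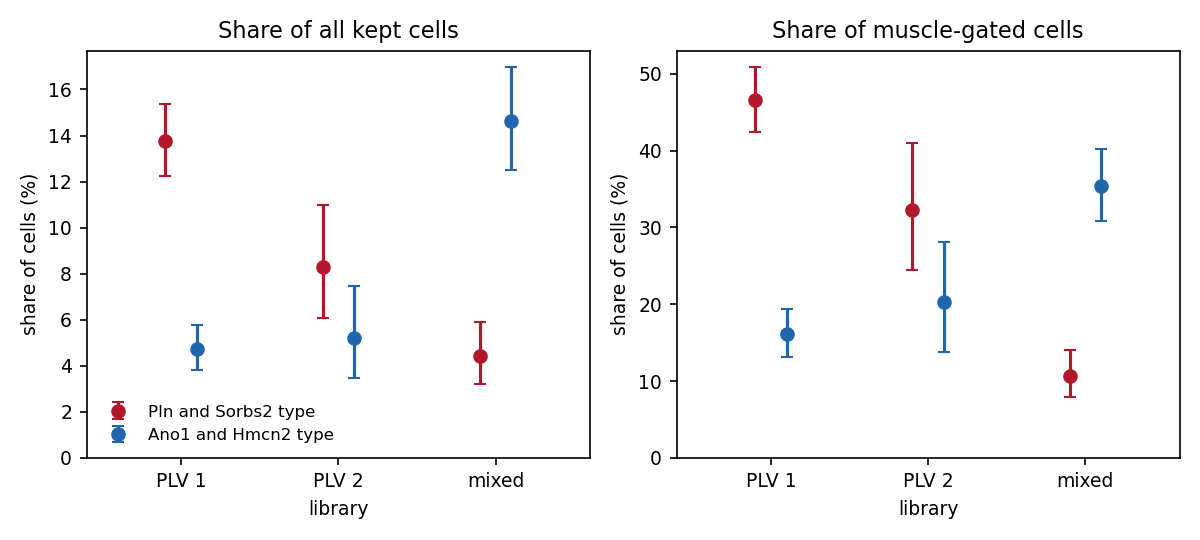
Share in percent of Pln and Sorbs2 type (red) and Ano1 and Hmcn2 type (blue) muscle among kept cells and among muscle-gated cells in each library, with 95% Clopper-Pearson intervals. The red share falls from 46.6% and 32.3% of muscle-gated cells in the PLV libraries to 10.7% in the mixed library, where the blue share is 35.4%.

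Thinning every cell to 1500 UMIs before gating, which leaves out shallower cells, kept this order, with 171 of 1528 cells (11.2%), 31 of 404 (7.67%) and 26 of 884 (2.94%) in the gate. Unthinned, 255, 43 and 44 cells of the same depth were in the gate, so that fewer cells meet the rule at a lower depth.

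To ask how this muscle differs from the other kind found in the same libraries, summed counts were compared within each library with those of Ano1 and Hmcn2 type muscle (91, 27 and 146 cells), muscle-gated cells with at least 2 of its 6 genes and at most 1 pericyte gene. Pln and Sorbs2 type cells were higher in Notch pathway genes, voltage-gated potassium and T-type calcium channels, the basement membrane collagen genes Col4a1 and Col4a2 and the transcription factors Foxc1 and Tbx2. They were lower in the follistatin gene Fst, in Ncam1 and Cdh3, in the alpha-2 adrenergic receptors Adra2a and Adra2b and in Gata6. Of 6245 genes tested, 497 were higher (7.96%) and 550 lower (8.81%), 1047 in all (16.8%), by edgeR's quasi-likelihood test with Benjamini-Hochberg adjustment, the method behind every adjusted p below unless DESeq2 is named. Library totals without TMM scaling turned the split to 352 higher and 682 lower, with a shift of all genes by -0.17 on the log2 scale. The gate genes counted for 14 of the calls and are not evidence. A gene that follows the gate genes from cell to cell was bound to differ, so these calls describe the 2 gates and do not show independently that they are 2 types. Without PLV replicate 1 the number fell to 254, and with Ano1 and Hmcn2 type cells taken without the pericyte limit it rose to 1981.

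The compared cells were not alike in background. Blood endothelial markers summed to 872 and 1007 CPM in Ano1 and Hmcn2 type cells of the PLV libraries and 41.6 CPM in the mixed library, and Schwann markers to 1042 CPM in PLV replicate 2 alone, where 1 of 27 cells had 2 or more of them. In the mixed library these cells also held the purinergic receptor P2rx1, at 253 CPM against 5.70 and 0 CPM in the PLV libraries. Pln and Sorbs2 type cells had 180 and 168 CPM of P2rx1 in the PLV libraries and 252 CPM in the mixed library. The part of these values in the results was not tested. Marker-positive cells, those with 2 or more of 5 endothelial, of 4 lymphatic endothelial or of 6 fibroblast genes, were also left out, after the data were seen. Then 1234 genes passed, 899 of them among the 1047.

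Ranked genes were called, in 1 direction in all libraries and at 50 CPM or more in a gate, with gate genes left out. The 12 highest by log2 difference were Perp, Rergl, Gm37800, Xirp1, Kcna5, Fam81a, Slc4a8, Cacna1g, Grip2, Foxc1, Igfbp4 and Cacna1h. Rergl, a gene of the Ras family, was at 106, 81.3 and 58.6 CPM in PLV replicates 1 and 2 and the mixed library, and at 0, 0 and 1.07 CPM in Ano1 and Hmcn2 type cells (log2 difference 6.30, SE 0.87, adjusted p = 0.00059). In the other muscle 1 UMI of Rergl was counted in all. Perp, a membrane protein of cell junctions, was at 44.7, 32.5 and 96.5 CPM against 0 UMIs in the other muscle of all 3 libraries, at least 23.8-fold higher with 3 UMIs over the 3 libraries as the floor. Igfbp4, which binds insulin-like growth factors, was the most abundant of the 12 and stood at 2067, 1448 and 1296 CPM against 205, 149 and 36.3 CPM (log2 difference 4.02, SE 0.37, adjusted p = 6.73e-05). The pericyte gate held 924, 1150 and 644.5 CPM of it, so Igfbp4 was no mark of this muscle alone. Grip2, a scaffold protein, was at 156, 157 and 114 CPM against 8.55, 21.3 and 4.27 CPM. The libraries of the 2 gates did not overlap for these 12 genes, which their choice by direction and size all but fixes, and nothing is read from it. Over all genes tested the share without overlap was 27.1%.

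Under the same limits, the 12 genes at the low end were Fst, Gpm6b, Rassf2, Cdh3, Ntm, Ncam1, Podn, Spock2, Steap4, Fhl2, Tmem119 and Stc1. Fst, the activin-binding protein follistatin, had 0 UMIs in all 351 Pln and Sorbs2 type cells against 348, 355 and 398 CPM in Ano1 and Hmcn2 type cells, at least 257-fold lower. Gpm6b, a membrane glycoprotein, was at least 89.2-fold lower, the adhesion molecule Ntm at least 66.6-fold, Rassf2 at least 65.6-fold, Ncam1 at least 44.4-fold, the cadherin Cdh3 at least 37.8-fold and the metalloreductase Steap4 at least 17.0-fold. Each of these 7 genes was at 0 in the Pln and Sorbs2 type cells of all libraries. Podn, a small matrix proteoglycan, had 1 UMI in the mixed library and 0 in the others, against 171, 92.2 and 241 CPM. Spock2, another matrix proteoglycan, had 2 UMIs in PLV replicate 1 and 0 in the others, against 234, 298 and 228 CPM. Steap4 rested on 9, 23 and 4 UMIs in the other muscle, and its fitted direction reversed under stricter gates in which PLV replicate 2 lacked a sum of that muscle. Fst and Steap4 were no mark of 1 kind of muscle, since the pericyte gate held 116, 108 and 151 CPM of Fst and 152, 324 and 96.9 CPM of Steap4.

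**Figure D3:**
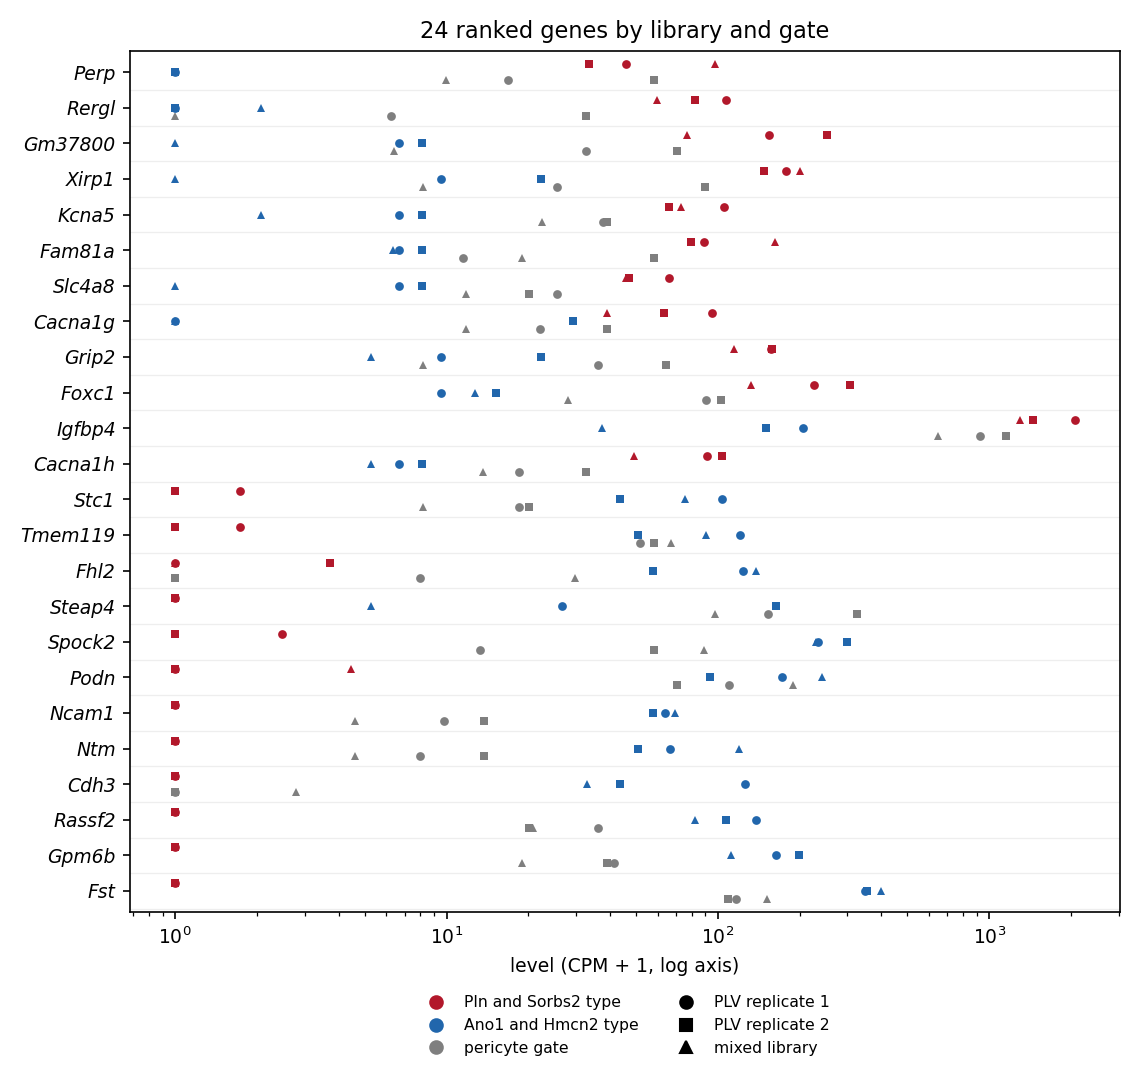
Levels of the 24 ranked genes (CPM plus 1, log axis) in Pln and Sorbs2 type muscle (red), Ano1 and Hmcn2 type muscle (blue) and the pericyte gate (grey), 1 point per library (circle PLV replicate 1, square PLV replicate 2, triangle mixed library). Red and blue points do not overlap for any of the 24 genes, which their choice by direction and size all but fixes. Over all genes tested the share without overlap is 27.1%. Fst, at 348 to 398 CPM in blue, is at 0 in red.

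Ion channels of the cell membrane differed gene by gene. Of 22 channel and connexin genes tested outside the gate, 6 were higher, 1 was lower and 15 did not pass, beside 7.96% higher, 8.81% lower and 16.8% called over all genes, with a median log2 difference of 0.07 against 0.01 over all genes tested. Kcna5, a voltage-gated potassium channel, was at 104, 65.1 and 72.4 CPM against 5.70, 7.09 and 1.07 CPM in Ano1 and Hmcn2 type cells (log2 difference 4.71, SE 0.45, adjusted p = 7.95e-05). Kcna2 of the same family was at 23.4, 29.8 and 34.5 CPM against 0, 0 and 1.07 CPM, and Kcnab1, a subunit of these channels, at 237, 339 and 207 CPM against 28.5, 21.3 and 70.4 CPM. All 3 thus belonged to the Kv1 group of channels and were higher in each library. Cacna1h, a T-type calcium channel, was at 90.1, 103 and 48.2 CPM against 5.70, 7.09 and 4.27 CPM (log2 difference 3.81, SE 0.37, adjusted p = 8.27e-05), and its relative Cacna1g at 94.5, 62.4 and 37.9 CPM against 0, 28.4 and 0 CPM. Gja4, which encodes the gap junction protein connexin 37, was at 136, 127 and 99.95 CPM against 48.4, 42.5 and 9.60 CPM. Cacna1c, the L-type calcium channel, had 105, 103 and 82.7 CPM against 259, 262 and 143 CPM, lower in each library, but did not pass (log2 difference -1.06, SE 0.34, adjusted p = 0.0578). Cacnb3, a subunit of such channels, was lower (log2 difference -1.51, SE 0.43, adjusted p = 0.0332), at 16.3 to 19.1 CPM against 52.3 to 70.9 CPM, and passed in 9 of 13 alternatives. Here and below, alternatives in which a gene was filtered out are not counted.

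Of 17 genes of the calcium store tested, 3 were higher and 14 did not pass, beside 7.96% of all genes higher and 16.8% called, with a median log2 difference of 0.08. A share of this size is no result about the list, and its genes are given singly. Hrc, a calcium-binding protein of the store, was at 81.3, 73.2 and 41.4 CPM against 8.55, 21.3 and 12.8 CPM (log2 difference 2.33, SE 0.37, adjusted p = 0.00139). The release channel Ryr2 was at 136, 179 and 159 CPM against 42.7, 56.7 and 60.8 CPM, with adjusted p = 0.0465, and Itpr1, the inositol trisphosphate receptor, at 412, 493 and 317 CPM against 256, 284 and 219 CPM, with adjusted p = 0.0203. Ryr2 and Itpr1 lost the threshold under 7 and 5 of the alternatives that were run. Atp2a2, the pump that phospholamban restrains, did not pass, at 828, 862 and 727 CPM against 949, 773 and 769 CPM (log2 difference 0.08, SE 0.25, adjusted p = 0.887).

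Receptors for vasoactive signals split in both directions. Of 24 receptors and regulators of G protein signalling tested, 7 were higher, 5 lower and 12 did not pass, beside 7.96% higher, 8.81% lower and 16.8% called over all genes, with a median log2 difference of 0.18. Vipr2, a receptor for vasoactive intestinal peptide, was at 24.9, 35.2 and 27.6 CPM against 0 UMIs in Ano1 and Hmcn2 type cells of all libraries, at least 12.9-fold higher. Ptger3, a receptor for prostaglandin E2, was at 27.8, 10.8 and 51.7 CPM against 8.55, 0 and 0 CPM, and Avpr1a, a vasopressin receptor, at 38.1, 21.7 and 41.4 CPM against 11.4, 14.2 and 0 CPM. Both had adjusted p = 0.0369. Avpr1a passed in 7 of 12 alternatives, with log2 differences from 1.51 to 3.62, and Ptger3 in 10 of 12, from 1.96 to 6.75. Olfr78 and Olfr558 are receptors of the olfactory class that are known in vessel muscle. Olfr558 was at 294, 298 and 299.9 CPM against 111, 106 and 117 CPM (log2 difference 1.51, SE 0.22, adjusted p = 0.000885), and Olfr78 was at 119, 65.1 and 82.7 CPM against 31.3, 0 and 17.1 CPM. Rgs4 was at 661, 621 and 345 CPM against 140, 120 and 61.9 CPM, and Rgs7bp, which anchors Rgs proteins at the membrane, at 414, 420 and 414 CPM against 68.4, 49.6 and 113 CPM.

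On the low side, Npr3, the clearance receptor for natriuretic peptides, had 0 UMIs in the Pln and Sorbs2 type cells and 37.0, 49.6 and 30.9 CPM in the other muscle, at least 23.1-fold lower. The alpha-2 adrenergic receptor Adra2a was at 5.13, 2.71 and 0 CPM against 85.5, 85.1 and 22.4 CPM (log2 difference -4.13, SE 0.57, adjusted p = 0.000563), and Adra2b at 7.33, 13.6 and 3.45 CPM against 51.3, 35.5 and 28.8 CPM. Rgs16 was at 2.20, 0 and 0 CPM against 11.4, 121 and 58.7 CPM. Rgs5, better known from pericytes, was at 591, 290 and 134 CPM against 1330, 1205 and 212 CPM (log2 difference -1.19, SE 0.35, adjusted p = 0.0403).

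Rgs5 was spread unevenly within the Pln and Sorbs2 type cells. It had a UMI in 107 of 264, 20 of 43 and 7 of 44 cells, and the top 26, 4 and 4 cells held 68.0%, 52.3% and 84.6% of its UMIs. The highest cell reached 20180 CPM, in PLV replicate 1, where 27 cells were above 2000 CPM. Rgs5 was lower in cells with a pericyte gene in both PLV libraries. In PLV replicate 1 the 188 cells with 0 pericyte genes had 761 CPM of Rgs5 and the 76 cells with 1 had 257 CPM, and in PLV replicate 2 the values were 429 and 81.4 CPM. In the mixed library they were 99.6 and 201 CPM, on 39 UMIs in 7 cells. After thinning to 1500 UMIs, Rgs5 had a variance of 10.7 times its mean in PLV replicate 1, against a median of 1.14 times over 455 genes with a mean of at least 0.5 UMIs. In PLV replicate 2 and the mixed library its ratio was 2.10 and 1.60, at means of 0.674 and 0.273 UMIs against 1.18 in PLV replicate 1, and such ratios cannot be set side by side at unequal means. Beside it, Malat1, Mt1 and Egr1 were among the 4 genes with the highest such ratio in PLV replicate 1, at 34.3, 4.85 and 4.60 times.

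Of 9 genes of nitric oxide and cyclic GMP signalling, which relaxes vessel muscle, 1 passed: Pde1a, a calmodulin-dependent phosphodiesterase, at 131, 160 and 72.4 CPM against 54.1, 63.8 and 49.1 CPM (log2 difference 1.10, SE 0.28, adjusted p = 0.0218). The call passed in 10 of 14 alternatives, with log2 differences from 0.79 to 1.38. The median log2 difference of the 9 was 0.43, and 1 of 9 does not exceed the 16.8% called over all genes. Gucy1a1, a subunit of the receptor for nitric oxide, stood at 710, 854 and 893 CPM against 510, 737 and 662 CPM and did not pass (adjusted p = 0.125).

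Of the 10 lists, the Notch pathway had the largest share of higher genes. Of 10 genes tested, 6 were higher and 4 did not pass, against 7.96% of all genes higher, and the median log2 difference was 1.35. Notch receptors are cut on contact with a ligand on a neighbouring cell, and the freed part switches on genes of the Hes and Hey families, which help vessel muscle to mature. Hey2, such a target, was at 213, 233 and 103 CPM against 25.6, 28.4 and 24.5 CPM in Ano1 and Hmcn2 type cells (log2 difference 2.61, SE 0.43, adjusted p = 0.00158). Hes1, another target, was at 1705, 1027 and 1020 CPM against 724, 489 and 330 CPM (log2 difference 1.46, SE 0.20, adjusted p = 0.000552). The ligand Jag1 was at 362, 306 and 221 CPM against 199, 78.0 and 52.3 CPM. Each of these 3 was higher in all libraries. Their libraries did not overlap, as for 27.1% of all genes tested, and nothing is read from that. Under strict gates, which leave PLV replicate 2 without a sum of the other muscle, Jag1 fell to 0.39 (edgeR adjusted p = 0.768). Nrarp then fell to 0.24 (edgeR adjusted p = 0.905) and passed in 11 of 14 alternatives, and Hey2 passed in 12 of 14. Nrarp, a feedback inhibitor, was at 138, 59.6 and 138 CPM against 54.1, 56.7 and 9.60 CPM, and in PLV replicate 2 the 2 levels were close. Among the receptors, Notch1 passed at 114, 94.9 and 34.5 CPM against 65.5, 49.6 and 11.7 CPM, and Notch3, the main receptor of vessel muscle, did not, at 1153, 941 and 562 CPM against 897, 936 and 298 CPM (log2 difference 0.59, SE 0.21, adjusted p = 0.0893). Nrip2, counted in this list, was at 457, 374 and 338 CPM against 99.7, 128 and 56.5 CPM. Of the immediate early and heat shock list, 8 genes of 23 were also higher in these cells, and their part in the Notch result was not tested.

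Promoters of 2 of the higher genes are shown because each holds a motif tied to a regulator of vessel muscle: GTGGGAA, the core bound by RBPJ, the DNA-binding partner of Notch, and the CArG box, bound by serum response factor. The bases are from RefSeq (GRCm38.p6), read 5′ to 3′ along the gene with 30 bases on either side of the motif, which is in capitals and was searched on both strands of the 250 bases before each start. They lie at chr10:30842954-30843020 for Hey2 and at chr6:139501919-139501988 for Rergl, both upstream of genes on the minus strand.
Hey2: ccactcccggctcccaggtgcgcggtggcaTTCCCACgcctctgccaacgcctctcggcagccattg
Rergl: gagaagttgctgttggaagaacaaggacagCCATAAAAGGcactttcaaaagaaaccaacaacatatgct
In Hey2 the motif reads on the opposite strand and ends 200 bases before the start, and in Rergl the CArG box ends 39 bases before it. GTGGGAA was found in 5.42% of all 32851 promoters of that length and the CArG box in 1.47%. Lower genes held the same motifs, GTGGGAA in Adra2a and Cacnb3 and the CArG box in Fhl1 and Fhl2. A comparison of motif shares between higher and lower genes is void, because many genes on both sides lacked a matched promoter. A promoter was matched for 373 of the 492 higher and 407 of the 541 lower genes searched. No excess of either motif among the higher genes is claimed. A match is a description of letters and not a bound site.

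Transcription factors differed in a few strong cases. Of 22 tested, 6 were higher, 4 lower and 12 did not pass, beside 7.96% higher, 8.81% lower and 16.8% called over all genes, with a median log2 difference of -0.15. Foxc1, a forkhead factor, was at 224, 306 and 131 CPM against 8.55, 14.2 and 11.7 CPM (log2 difference 4.05, SE 0.35, adjusted p = 5.75e-05). Tbx2, a T-box factor, was at 243, 214 and 145 CPM against 57.0, 21.3 and 7.47 CPM (log2 difference 3.06, SE 0.42, adjusted p = 0.000563), and Mef2c, a muscle factor, at 940, 903 and 699.7 CPM against 436, 496 and 249 CPM. Gata6 had 1 UMI in the Pln and Sorbs2 type cells and was at 94.0, 28.4 and 35.2 CPM in the other muscle. Prrx1, a factor of limb mesenchyme, was lower in all libraries at 170, 249 and 214 CPM against 974, 886 and 892 CPM (log2 difference -2.00, SE 0.21, adjusted p = 0.00013), as was Zeb2 at 316, 439 and 276 CPM against 1222, 1397 and 1018 CPM. Osr1 had 0 UMIs against 2, 4 and 7 UMIs, at least 6.14-fold lower, and its fitted direction reversed under stricter gates. Myocd, the coactivator that drives contractile genes, did not pass, at 166, 193 and 176 CPM against 217, 177 and 223 CPM (adjusted p = 0.831). Nr2f2, known as a factor of venous and lymphatic endothelium, was at 691, 729 and 365 CPM against 1137, 915 and 574 CPM and did not pass (adjusted p = 0.158).

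Of 28 contractile genes tested, 4 were higher, 1 lower and 23 did not pass, with a median log2 difference of 0.34. This is close to the 16.8% called over all genes, so the count says nothing particular of contractile genes. Synm, an intermediate filament protein, was at 555, 529 and 458 CPM against 99.7, 142 and 57.6 CPM (log2 difference 2.63, SE 0.39, adjusted p = 0.000866). Smtn and Itga7 also passed, and each overlapped between the 2 kinds of cell across libraries. Smtn passed in 9 of 15 alternatives, down to 0.45, and Itga7 in 10 of 15, down to 0.49. Actg2, the gamma actin known from gut muscle, was lower at 113, 94.9 and 207 CPM against 880, 496 and 1410 CPM (log2 difference -2.58, SE 0.30, adjusted p = 0.000217). Acta2 did not pass, with 11240, 7316 and 14420 CPM in the other muscle (log2 difference 0.46, SE 0.40, adjusted p = 0.51).

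Some genes better known from striated muscle were higher. Of 12 tested, 4 were higher, 1 lower and 7 did not pass, beside 7.96% higher, 8.81% lower and 16.8% called over all genes, with a median log2 difference of 0.71. Xirp1, an actin-binding protein of cardiac and skeletal muscle, was at 177, 146 and 199.9 CPM against 8.55, 21.3 and 0 CPM (log2 difference 5.19, SE 0.77, adjusted p = 0.00089). Tesc was at 31.3, 106 and 7.47 CPM in the other muscle (log2 difference 3.62, SE 0.61, adjusted p = 0.00189). The gate did not use Tesc, but it was named as a marker of these cells with earlier results known. Its direction, and its place among the 4 higher genes, are therefore not independent evidence. Rbpms2, an RNA-binding protein of muscle, was at 426, 396 and 345 CPM against 117, 113 and 133 CPM. Fhl1, a LIM protein, was lower at 83.5, 103 and 82.7 CPM against 322, 213 and 262 CPM. Its relative Fhl2, ranked above, had 1 UMI in all Pln and Sorbs2 type cells. Tnnt2 and Myl7 of the same list were not tested. They had 0 UMIs in these cells against 33 and 14 UMIs in the other muscle, at least 15.6-fold and 6.61-fold lower.

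Matrix genes passed in both directions. Of 27 tested, 9 were higher (Ltbp1, Lox, Eln, Col4a1, Col4a2, Col18a1, Lama5, Sparcl1 and Emilin1), 5 lower (Col3a1, Col5a2, Lama4, Npnt and Timp2) and 13 did not pass, beside 7.96% higher, 8.81% lower and 16.8% called over all genes, with a median log2 difference of 0.10. Col4a1, a chain of basement membrane collagen, was at 576, 605 and 906 CPM against 217, 298 and 270 CPM (log2 difference 1.56, SE 0.21, adjusted p = 0.00046), and Col4a2 at 407, 409 and 779 CPM against 142, 241 and 231 CPM. Ltbp1, which binds latent TGF-beta in the matrix, was at 296, 309 and 248 CPM against 31.3, 63.8 and 26.7 CPM. Elastin, Eln, was at 329, 268 and 627 CPM against 202, 106 and 103 CPM, and Lox, which cross-links it, at 111, 106 and 110 CPM against 14.2, 7.09 and 68.3 CPM. Lox passed in 9 of 14 alternatives, with log2 differences from 1.31 to 3.27, and not without PLV replicate 1 (1.45) or PLV replicate 2 (1.44). Eln passed in 14 of 15, from 0.98 to 2.16. The pericyte gate held 386, 413 and 296 CPM of Eln and 463, 572 and 867 CPM of Col4a1, so neither was particular to this muscle. Col3a1, a fibrillar collagen, was lower at 239, 165 and 951 CPM against 1547, 978 and 2988 CPM (log2 difference -2.17, SE 0.26, adjusted p = 0.000233), and so was Col5a2. Lama4, a laminin chain of basement membrane, was lower at 58.6, 27.1 and 51.7 CPM against 234, 220 and 239 CPM (log2 difference -2.14, SE 0.24, adjusted p = 0.000193), so basement membrane genes lay on both sides. Fibroblast markers moved with Col3a1, at 932, 626 and 1709 CPM summed in the Pln and Sorbs2 type cells against 3236, 2169 and 2444 CPM, and their part was not tested.

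Some immediate early genes, which cell isolation is known to induce, were higher. Of 23 immediate early and heat shock genes tested, 8 were higher (Ier3, Ier2, Nr4a1, Hspa8, Btg2, Junb, Egr1 and Jund) and 15 did not pass, among them all heat shock genes but Hspa8, beside 7.96% higher and 16.8% called over all genes, with a median log2 difference of 0.73. Egr1 was at 5001, 2559 and 3715 CPM against 2527, 1701 and 1696 CPM (log2 difference 1.06, SE 0.22, adjusted p = 0.00632), and Ier3 at 386, 325 and 348 CPM against 82.6, 35.5 and 84.3 CPM. The genes of this list made up a median of 2.61%, 1.44% and 3.75% of the UMIs of a Pln and Sorbs2 type cell, and within PLV replicate 1 the cells ranged from 0.143% to 6.14%.

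**Figure D4:**
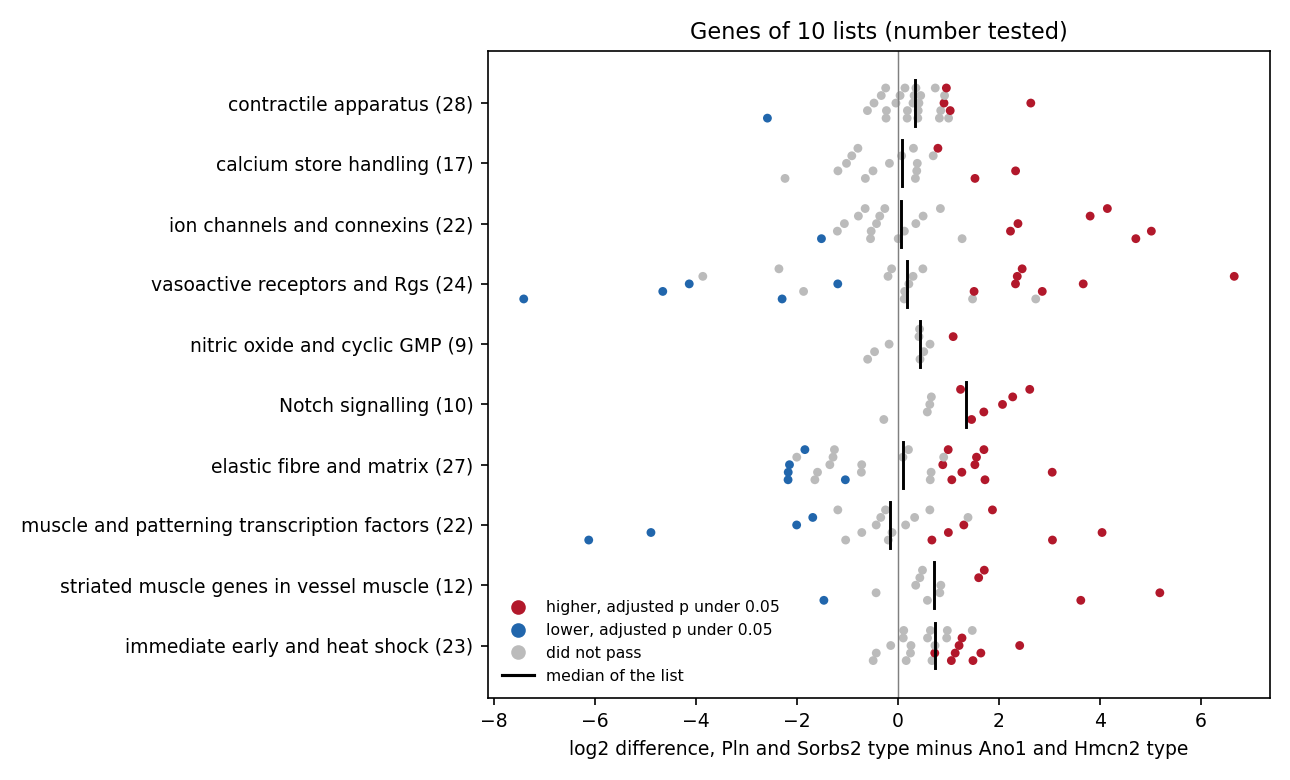
Log2 difference between Pln and Sorbs2 type and Ano1 and Hmcn2 type muscle for each tested gene of the 10 lists (red higher and blue lower at an adjusted p under 0.05, grey did not pass, black bar the median of the list, number tested in parentheses). Notch genes have the highest median, at 1.35, and the calcium store and channel lists have medians of 0.08 and 0.07 with single genes far to the right.

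The second comparison was with the pericyte gate (82, 17 and 47 cells), defined by at least 2 of the 4 pericyte genes and at most 1 gene of the Ano1 and Hmcn2 set. Of 6245 genes, 675 were higher in Pln and Sorbs2 type cells (10.8%) and 918 lower (14.7%), 1593 in all (25.5%). The gate genes counted for 14 of these calls and are not evidence. The pericyte gate asked for no muscle gene, and 41.5%, 41.2% and 31.9% of its cells had 2 or more of the 4. A gene that follows the 4 muscle genes from cell to cell was thus bound to be higher, and these calls describe the gates. Fibroblast markers summed to 24280, 23327 and 35631 CPM in the pericyte gate, which thus held much fibroblast RNA. It also held cells with genes of the Pln and Sorbs2 set: 37.8%, 29.4% and 27.7% of its cells had 2 or more of Pln, Sorbs2, Susd5, Timp4, S1pr3 and Tesc, and Pln stood at 224, 349 and 77.2 CPM. With marker-positive cells left out, 70 genes passed, 2 higher and 68 lower, 64 of them among the 1593. That setting also left 9 pericyte-gate cells in PLV replicate 2, under the minimum of 10 for a sum, so it compares fewer sums as well as fewer cells. Without PLV replicate 1, 289 passed. Myocd was higher at 166, 193 and 176 CPM against 45.6, 31.8 and 17.9 CPM (log2 difference 2.47, SE 0.31, adjusted p = 0.000288), and so was Sgca, a sarcoglycan of the muscle membrane, at 49.1, 51.5 and 58.6 CPM against 3.51, 12.7 and 1.80 CPM. With marker-positive cells left out Myocd fell to 0.59 (edgeR adjusted p = 0.796), and Olfr78 and Rbm38 to 1.09 and 0.54. Col4a6, Olfr78, Xirp1, Tcap, Rbm38 and Rergl were the others of the 8 genes ranked on the high side. Rergl was 1 of the 2 that remained higher without marker-positive cells (log2 difference 2.94, edgeR adjusted p = 0.014), and Steap4 and Fst were among those that remained lower. Kdr, Gpihbp1 and Col15a1 had 0 UMIs in the Pln and Sorbs2 type cells, at least 125-fold, 140-fold and 122-fold lower. These are known from endothelium and fibroblasts. The 16 ranked genes did not overlap, which again follows from their choice; over all genes tested the share without overlap was 32.5%.

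The third comparison asked whether Pln and Sorbs2 type cells differ between PLV and mixed libraries. The heat shock genes Hspa1a, Hspa1b and Dnajb1 and the collagen genes Col1a1 and Col3a1 were lower in both PLV libraries. Of 5739 genes tested, 58 were higher (1.01%) and 114 lower (1.99%) in the PLV libraries, 172 in all (3.0%). Library totals without TMM scaling gave 150 higher and 64 lower, with all genes shifted by 0.23 on the log2 scale. DESeq2 called 13 genes, all of them among the 172, and 8 genes passed with marker-positive cells left out. The mixed side is 1 library of 44 cells, whose variation was taken to be that of the PLV pair. The calls and p-values therefore set this 1 pool against the PLV pools and are not replicated, and the effects of vessel, digestion and pool cannot be told apart.

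Of the immediate early and heat shock list, 11 of 23 tested genes were lower in the PLV libraries and 12 did not pass, beside 1.99% lower over all genes, with a median log2 difference of -0.91. The chaperone Hspa1a was at 231 and 81.3 CPM in the PLV libraries and 1306 CPM in the mixed library (log2 difference -3.18, SE 0.28, adjusted p = 2.79e-27). Hspa1b was at 196, 94.9 and 903 CPM and Dnajb1, a partner of these chaperones, at 92.3, 73.2 and 369 CPM. Hspa1a, Hspa1b and Dnajb1 passed without marker-positive cells too, with adjusted p = 0.0412, 0.00867 and 0.0135. DESeq2 called Dnajb1 but neither Hspa1a (adjusted p = 0.59) nor Hspa1b (adjusted p = 0.124), and Dnajb1 did not pass after thinning (adjusted p = 0.31). At least 1 of the 3 genes had a UMI in 42 of 44 cells of the mixed library, and the top 3 cells held 28.1% of their UMIs. Ano1 and Hmcn2 type cells had 789, 404 and 2730 CPM of the 3 summed, beside 519, 249 and 2578 CPM. Atf3, a stress-induced factor, was at 1205, 349.7 and 2657 CPM, and the chemokine Cxcl1 at 83.5, 8.13 and 541 CPM. Both lost the call with DESeq2 and without marker-positive cells, there at log2 differences of -1.97 (edgeR adjusted p = 0.289) and -3.40 (edgeR adjusted p = 0.0777). PLV replicate 1 lay above PLV replicate 2 for each of the 5 genes.

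Of 24 matrix genes tested, 10 were lower in the PLV libraries, 1 was higher and 13 did not pass, beside 1.99% lower and 3.0% called over all genes, with a median log2 difference of -0.85. Col1a1 was at 120, 84.0 and 572 CPM, Col3a1 at 239, 165 and 951 CPM and Mfap5, a fibroblast gene of elastic microfibrils, at 0.733, 0 and 93.1 CPM. In the mixed library few cells held most of this RNA. Of the UMIs of Col1a1, Col3a1, Pi16, C3 and Mfap5 in the 44 cells of the mixed library, 76.9% were in 3 cells, against 35.5% in 3 of 43 cells in PLV replicate 2 and 12.6% in 3 of 264 in PLV replicate 1. With marker-positive cells left out, which leaves 41 of the 44 cells, Col1a1 (log2 difference -1.18, edgeR adjusted p = 0.275) and Col3a1 (log2 difference -0.59, edgeR adjusted p = 0.481) did not pass.

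In the contractile, calcium store, cyclic GMP and Notch lists few genes were called between kinds of library, as over all genes (3.0%), and nothing is read from their number. Of 19 transcription factors tested 2 were lower in the PLV libraries, Foxs1 and Klf2, and of 12 striated muscle genes 1, Tesc. Of 28 contractile genes 1 was lower in the PLV libraries, Actg2, and of 13 calcium store genes, 9 cyclic GMP genes and 10 Notch genes none passed in either direction by edgeR, with 2, 2 and 4 of them at an unadjusted p under 0.05. DESeq2 called none of them either. Its 13 calls were Gadd45b, Irf1, Ubb, Nfkbia, Dnajb1, Col1a1, Col1a2, Col3a1, Sparc, Mfap5, 1200007C13Rik, Xist and Ddx3y. Among 22 channel genes Scn3a, a sodium channel, was higher in the PLV libraries, at 222, 193 and 79.3 CPM (log2 difference 1.19, SE 0.34, adjusted p = 0.0257). Rgs5 was higher too, at 591, 290 and 134 CPM (log2 difference 1.53, SE 0.32, adjusted p = 0.000213), and Tesc was lower, at 265, 282 and 438 CPM (log2 difference -0.89, SE 0.27, adjusted p = 0.0357). With marker-positive cells left out none of these 3 passed, at log2 differences of 1.20 for Scn3a, 1.33 for Rgs5 and -0.92 for Tesc, so that the calls were lost and the sizes were not. The Tesc call passed in 2 of 9 alternatives, with values from -0.92 to -0.31, the Scn3a call in 5 and the Rgs5 call in 7. The ranked genes higher in the PLV libraries were Xist, Atp8b2, Dnajb5, Gm26802, Tgfb1, Bcl6, Adgre5 and Rnf44. All but Xist had only 1 or 2 UMIs in the mixed library and did not pass with marker-positive cells left out, with edgeR adjusted p from 0.222 for Atp8b2 to 0.309 for Tgfb1, while their log2 differences stayed between 2.58 and 3.66. Xist was at 587, 463 and 0 CPM and Ddx3y at 0, 0 and 172 CPM, so the pools differed in sex-limited RNA as well.

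**Figure D5:**
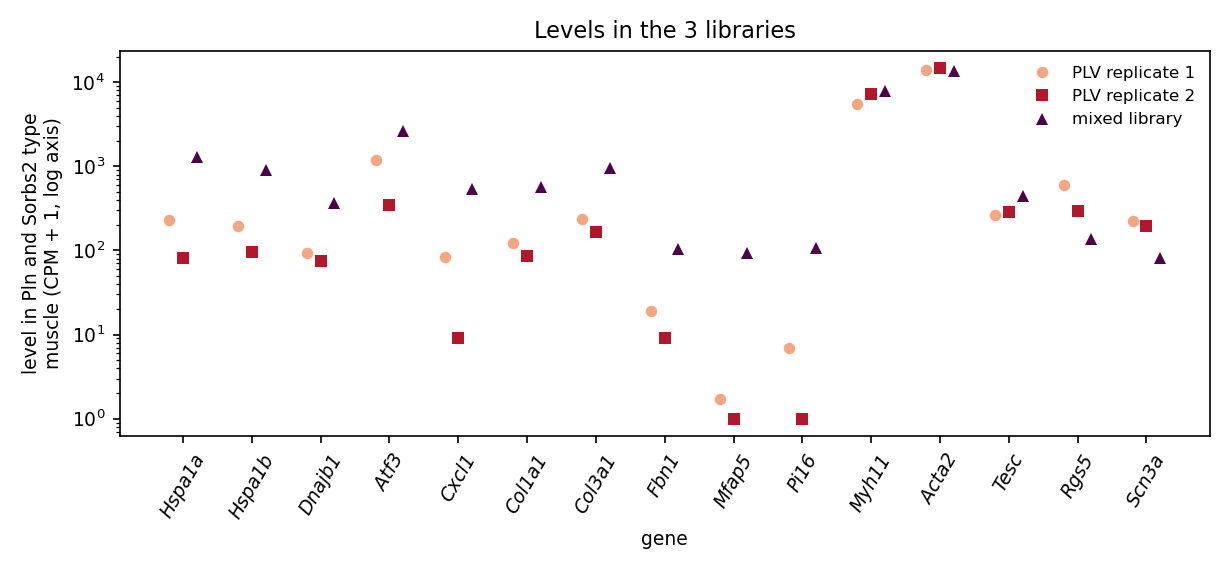
Levels in Pln and Sorbs2 type muscle (CPM plus 1, log axis) of 15 genes in the 3 libraries, 1 point per library. The mixed library lies above both PLV libraries for the 10 genes on the left, from Hspa1a to Pi16, while Myh11 lies between 5566 and 7868 CPM and Rgs5 and Scn3a are lowest in the mixed library.

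A test of whether the difference between kinds of library was unlike in the 2 kinds of muscle called 71 of 5336 genes (1.33%), 22 with a positive interaction (0.412%) and 49 with a negative one (0.918%), and DESeq2 called 2. The gate genes counted for 3 of the 71 and are not evidence. The mixed side of both gates is the same 1 library, so these values have no replicate there. Tesc was among the 71 and not among the 2. It was at 265, 282 and 438 CPM in Pln and Sorbs2 type cells and at 31.3, 106 and 7.47 CPM in Ano1 and Hmcn2 type cells (interaction -3.49, SE 0.59, adjusted p = 2.33e-06). Elastin (Eln) was also among the 71 and not among the 2, with 329, 268 and 627 CPM beside 202, 106 and 103 CPM (interaction -1.65, SE 0.36, adjusted p = 0.00103). P2rx1 differed in the Ano1 and Hmcn2 type gate between the same libraries, as given above, and its part in these values was not tested.

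The reporter tdTomato marks cells with present or past activity of the Wt1 locus. In Pln and Sorbs2 type cells it had 74, 41 and 39 UMIs, or 54.2 (95% exact Poisson interval 42.6 to 68.1), 111 (79.8 to 151) and 134 CPM (95.6 to 184). A UMI was found in 60 of 264, 23 of 43 and 21 of 44 cells, and after thinning to 1500 UMIs in 9.80%, 11.6% and 18.2% of them. Thinned in the same way, fibroblast-marked cells had a UMI in 4.44%, 1.52% and 6.50% of cells. Wt1 itself had 0 UMIs in all 351 Pln and Sorbs2 type cells, which allows up to 1.48 CPM (3 counts over the gate). The tdTomato level was not shown to differ from Ano1 and Hmcn2 type cells, which had 31.3, 78.0 and 154 CPM (log2 difference 0.32, SE 0.28, adjusted p = 0.499), nor from the pericyte gate, at 38.6, 88.9 and 75.4 CPM (log2 difference 0.61, SE 0.29, adjusted p = 0.152). It was lower in the PLV libraries than in the mixed library (log2 difference -1.09, SE 0.34, adjusted p = 0.0475), a call that DESeq2 and 5 other alternatives did not keep. The PLV libraries differed from each other by about as much, 54.2 against 111 CPM.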

How the data were processed

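The files hold UMI counts of each gene in each barcode, as deposited by the authors and without normalisation. According to the headers the authors made the PLV counts with Cell Ranger 6.1.2 and the mixed counts with Cell Ranger 4, and the submitters' processing notes name the build GRCm38. The PLV files held called cells (2649 and 730 barcodes) and the mixed file all 896360 barcodes. Cells were kept with at least 500 UMIs, 300 genes, at most 15% mitochondrial and 20% haemoglobin UMIs. Predicted doublets (scrublet in scanpy 1.11.5) were kept. Members and gene lists were chosen with earlier results of these data known.

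Counts were summed per library and gate (sums of under 10 cells left out) and tested with edgeR 4.0.16 (quasi-likelihood, TMM, filterByExpr, library as a block, Benjamini-Hochberg at 0.05 over all genes tested). DESeq2 1.42.0 was the alternative. PLV against mixed had no block. Each library is a separate pool. On simulated counts the test recovered 26% of 2-fold and 94% of 4-fold changes against Ano1 and Hmcn2 type muscle (6245 genes), and 9.5% and 60% between the kinds of library (5739 genes).

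Genes were named if at 50 CPM or more in a gate, called and in 1 direction in all libraries (12 and 12 by size against Ano1 and Hmcn2 type muscle, 8 and 8 in the other comparisons), or called in a list (up to 4 a direction), plus tdTomato, Tesc and the gate genes. Genes given as not passed, and list members beyond 4, were added after their values were seen. Intervals (95%) cover counting error only. Folds against 0 use a floor of 3 UMIs over the gate. The values of 1 gene are not reported here.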

Additional observations from a re-analysis of the deposited data

Results flagged for a closer look

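For 10 named genes the log2 difference between PLV and mixed libraries passed a test for being unlike in Pln and Sorbs2 type and Ano1 and Hmcn2 type muscle, by an interaction term in edgeR. The values below are the difference (PLV minus mixed) in the first kind minus that in the second, and the mixed side is the same 1 library for both, so it has no replicate. DESeq2 called Mfap5 alone of the 10. Mfap5 had -7.42 (SE 0.89, adjusted p = 1.99e-13), on 27 UMIs in the 44 mixed cells against 1 UMI in both PLV libraries. Fbn1 had -2.98 (SE 0.62, adjusted p = 0.000324) and Col1a1 -1.67 (SE 0.33, adjusted p = 0.000148). In the mixed library 3 of the 44 Pln and Sorbs2 type cells held 76.9% of the UMIs of Col1a1, Col3a1, Pi16, C3 and Mfap5. The difference between kinds of library in these cells did not pass for Fbn1 or Col1a1 with marker-positive cells left out, where Col1a1 shrank to -1.18 (edgeR adjusted p = 0.275) and Fbn1 stayed at -2.48 (edgeR adjusted p = 0.333). Tesc had -3.49 (SE 0.59, adjusted p = 2.33e-06), and Eln -1.65 (SE 0.36, adjusted p = 0.00103). Igfbp4 had -1.79 (SE 0.41, adjusted p = 0.00192): it was at 2067, 1448 and 1296 CPM in Pln and Sorbs2 type cells and at 205, 149 and 36.3 CPM in the other muscle. Klf2 had -1.76 (SE 0.38, adjusted p = 0.000635), at 432, 141 and 610 CPM beside 211, 63.8 and 83.2 CPM, and Nrarp -2.76 (SE 0.65, adjusted p = 0.00376). Xirp1 had -6.17 (SE 1.69, adjusted p = 0.0258), a fitted value that depends on the prior count because the other muscle of the mixed library had 0 UMIs. Lox alone of the 10 had a positive value, 2.51 (SE 0.66, adjusted p = 0.0166), at 111, 106 and 110 CPM beside 14.2, 7.09 and 68.3 CPM.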

How the results depend on the processing

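Of 1445 alternative values of 117 named results, 1249 kept direction and side of the threshold, 194 kept the direction without passing and 2 reversed: Steap4 (0.43) and Osr1 (1.18) against Ano1 and Hmcn2 type muscle under strict gates, where PLV replicate 2 had too few compared cells for a sum. tdTomato against that muscle turned to -0.32 there. An alternative in which a gene was filtered out gave no value and is not among the 1445. Of the 117 results, thinning to 1500 UMIs gave a value for only 46 that kept and 9 that lost the threshold. The counts of alternatives passed by single genes leave such settings out as well. For the values that follow, the cause was not tested. Against Ano1 and Hmcn2 type muscle 1047 genes became 1981 without the pericyte limit, 1576 without a filter on low counts, 421 thinned to 1500 UMIs, 125 with strict gates and 254 to 1417 with a library left out (254 without PLV replicate 1). Against the pericyte gate 1593 became 550 thinned, 445 with strict gates, 70 without marker-positive cells (9 pericyte-gate cells then remained in PLV replicate 2, too few for a sum) and 289 to 1593 with a library left out (289 without PLV replicate 1). Between kinds of library 172 became 13 with DESeq2, 33 thinned, 109 with strict gates and 8 without marker-positive cells, and the 71 interaction genes became 2, 8 and 35 with DESeq2, thinned and without marker-positive cells and 44 without predicted doublets (not fitted with strict gates, for want of a sum). tdTomato between kinds of library did not pass with DESeq2 (-0.95), without TMM (-0.86), without marker-positive cells (-1.24), without a low-count filter (-1.05), without doublets (-1.09) or with strict gates (-0.78). The member share moved to 15.4% with 1000 UMIs in PLV replicate 1, to 11.2% and 2.94% when gated after thinning in PLV replicate 1 and the mixed library, and to 25.1%, 17.0% and 11.2% of cells without other markers. No paired analysis was possible because replicate numbers do not pair PLV with mixed libraries; the library served as the block between gates, and 711 and 1139 genes passed in fits lacking that block. Leaving out a library between kinds was not run, as no residual degrees of freedom remain. Marker-positive cells and the open gate were added after the data were seen. Depth limits genes under the floor of 1.48 CPM over the Pln and Sorbs2 type cells.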
